A study of Ovis aries with 36 samples.

Results

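AMP-activated protein kinase (AMPK) and the kinases that switch it on were followed in fetal sheep muscle and fat. Members were the loci whose gene name, split at commas, was PRKAA1, PRKAA2, PRKAB1, PRKAB2, PRKAG1, PRKAG2, PRKAG3, STK11 or CAMKK2, and loci of 1 name were summed. All 9 genes were found in each tissue, out of 21602 gene names present in all 3 tissues. The muscle files had 10 such loci out of 34958, the subcutaneous files 10 out of 34246 and the perirenal files 9 out of 35060.

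The data were RNA-seq counts from 36 libraries, each a pool of RNA from fetuses of Polypay ewes bred to a single sire and taken in late gestation. Pools came from 26 fetuses of 15 dams. By the study's list of pools, the CN F2 library of each tissue held RNA of 1 fetus, and it is called a pool here only for brevity. Tissues were longissimus dorsi (a back muscle), the subcutaneous adipose depot near the shoulder blade and the perirenal adipose depot around the kidney. Each tissue had 12 pools, with 4 per maternal diet (2 female, F1 and F2, and 2 male, M1 and M2). CN dams were fed corn, DG dams dried corn distillers grains, and HY dams haylage, which the labels call hay. Every diet comparison in a tissue shares pools with the other 2. By the same list, every pool except CN F2 shares a dam with another pool of its diet. The fits hold no term for the dam and treat the pools of a diet as independent. The p-values therefore measure the spread between pools and not between dams, which were the animals fed. In pooled bulk tissue, fewer cells of a type and less RNA per cell cannot be told apart.

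AMPK is a heterotrimer that senses a fall in cellular energy. The alpha subunit (PRKAA1 or PRKAA2) is the kinase, the beta subunit (PRKAB1 or PRKAB2) is the scaffold that also binds glycogen, and the gamma subunit (PRKAG1, PRKAG2 or PRKAG3) binds AMP, ADP and ATP. The alpha subunit is activated by phosphorylation, mainly by LKB1 (STK11) and, when calcium rises, by CaMKK2 (CAMKK2). Active AMPK favours fatty acid oxidation and glucose uptake over lipid, glycogen and protein synthesis, and skeletal muscle is known for complexes that hold alpha 2, beta 2 and gamma 3.

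Library totals ran from 6705766 to 29625146 counts, and the medians were 20143802 (muscle), 13881270.5 (subcutaneous) and 10776612 (perirenal). No 2 pools of a group agreed within counting noise (chi-square per degree of freedom from 9.93 to 289 over 54 pairs). Levels are given as normalised CPM, counts scaled to library size with TMM (trimmed mean of M-values) factors over all 36 libraries, with no gene length, so levels of different genes are not compared. Differences are log2 fold changes ± SE from the edgeR quasi-likelihood test, and FDR is the Benjamini-Hochberg value over all features tested, with FDR ≤0.05 as the threshold.

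The labels of the tissues were checked against marker genes. The 15 skeletal muscle markers found (of 20) summed to between 128607 and 175472 normalised CPM in muscle, to between 38.5 and 625 in perirenal pools, and to anything from 894 to 145206 in subcutaneous pools. Adipocyte markers (6 of 8 found) summed to 2464 to 13523 in the subcutaneous depot, 6546 to 17335 in the perirenal depot and 104 to 227 in muscle, where LPL alone measured 95.8 to 160. All 5 brown adipocyte markers were found and summed to 65.8 to 299 (subcutaneous), 674 to 1567 (perirenal) and 54.1 to 74.9 (muscle). The muscle sum was nearly all PPARGC1A, at 51.2 to 72.3, with UCP1 at most at 0.273. PPARGC1A was lower in perirenal pools, at 2.23 to 8.49, where UCP1 measured 427 to 1198. Between these 2 tissues 1 of the 5 markers was higher in muscle, 3 were lower and 1 did not pass. Kidney markers (4 of 4 found) summed to at most 0.571 in any pool. The subcutaneous pools therefore held very different amounts of muscle RNA.

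That amount was expressed as the muscle share of a pool, the median over the 15 muscle markers of the CPM in the pool divided by the mean CPM in muscle. In CN it was 19.7% in F1, 46.3% in F2, 3.67% in M1 and 8.47% in M2. In DG it was 76.7% in F1, 54.8% in F2, 0.987% in M1 and 60.3% in M2. In HY it was 0.809% in F1, 73.8% in F2, 2.76% in M1 and 13.1% in M2. Thus 3 of the 4 DG pools stood above 50%, as did 1 HY pool, and no CN pool did. In perirenal pools it was 0.0182% to 0.514%. Markers of 1 pool did not agree on a single figure: in HY M2 the slow-fibre gene TNNT1 was at 263% of its muscle level and the fast-fibre gene MYLPF at 1.98%, and in all 12 subcutaneous pools the fast-fibre gene TNNI2 was the lowest marker.

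Fetal muscle carried far more PRKAA2, PRKAB2 and PRKAG3 than perirenal fat, while PRKAG2 and PRKAB1 were lower in muscle. Of the 8 members that can be compared between these tissues, 3 were higher in muscle, 2 were lower and 3 did not pass the test (edgeR, FDR ≤0.05), with PRKAA1 among the last only when its loci are summed. Over all features 79.8% passed, so a count of this size is no feature of AMPK genes, and the pools of 4 of the 8 did not overlap, against 39.8% of all features.

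**Figure D1:**
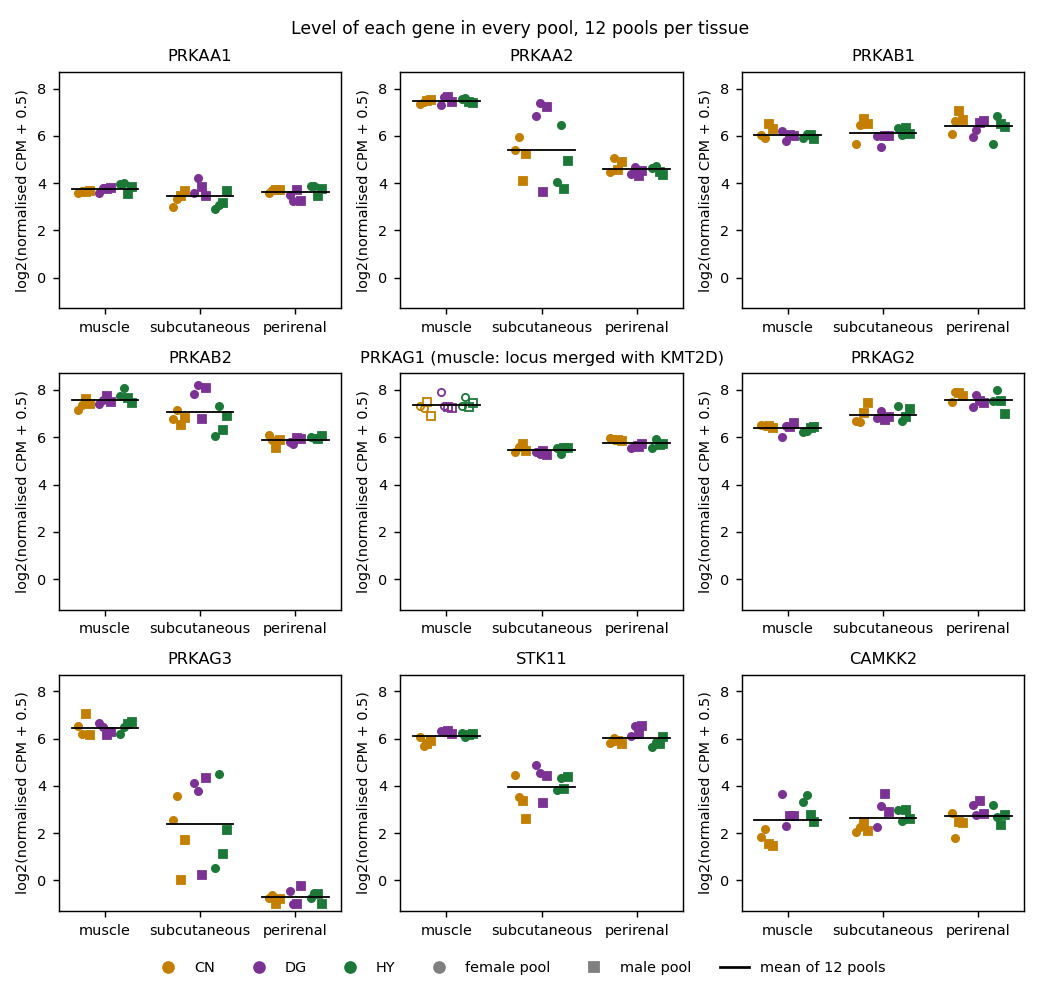
Level of each of the 9 genes in every pool on a log2 scale (normalised CPM plus 0.5) by tissue, with diet as colour, sex as symbol and a line at the mean of 12 pools; open symbols mark muscle PRKAG1, whose locus is merged with KMT2D. PRKAA2, PRKAB2 and PRKAG3 are high in muscle, low in perirenal pools and widely spread in subcutaneous pools, and STK11 is low in subcutaneous pools.

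PRKAA2, the alpha 2 kinase, was measured from 1 locus with nearly the same limits in the 3 assemblies (chromosome 1, 30977068 to 31017810 in muscle, on Oar_v3.1). Its level was lowest at 157, median 175 and highest at 202 in muscle. It was 11.7, 39.7 and 169 in subcutaneous pools and 19.2, 22.9 and 32.7 in perirenal pools. Muscle and perirenal pools did not overlap, and subcutaneous pools reached from below every perirenal pool into the muscle range. Muscle was higher than perirenal by 2.91 ± 0.30 (7.52-fold, FDR = 3.14e-10) and than subcutaneous by 1.71 ± 0.28 (3.26-fold, FDR = 3.87e-06), and subcutaneous was higher than perirenal by 1.21 ± 0.28 (2.31-fold, FDR = 0.000425).

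PRKAA1, the alpha 1 kinase, showed none of this pattern. Median levels were 12.5 (muscle), 10.5 (subcutaneous) and 12.5 (perirenal), with overlapping ranges of 11.2 to 15.8, 6.91 to 18.2 and 8.86 to 14.1. Muscle was above subcutaneous adipose by 0.27 ± 0.10 (FDR = 0.0177). This rests on the sum of 2 PRKAA1 loci in muscle, where subcutaneous adipose has counts at only 1, and the difference was -0.37 (FDR = 0.00379) with the larger locus alone. It also missed the threshold without DG M2 (FDR = 0.0549), HY F1 (FDR = 0.0614) or HY F2 (FDR = 0.0582). Muscle minus perirenal was 0.12 ± 0.10 (FDR = 0.264) with the sum, and perirenal adipose also has 1 PRKAA1 locus. With the larger muscle locus alone this difference became -0.53 ± 0.11 (FDR = 8.04e-05), so no direction is given for PRKAA1 between muscle and either depot. A muscle locus of the same span, named SNORD72, held 926 counts over the 12 pools, against 1538 and 817 at the PRKAA1 loci. It is not in the sum, and its part was not tested. Subcutaneous minus perirenal, which the second muscle locus does not touch, was -0.15 ± 0.10 for subcutaneous minus perirenal (FDR = 0.20).

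PRKAB2, the beta 2 scaffold, followed PRKAA2 (chromosome 1, 97163178 to 97179419). Lowest, median and highest levels were 142, 186 and 267 in muscle, 66.0, 115 and 292 in subcutaneous, and 46.4, 59.5 and 67.5 in perirenal pools. All muscle pools lay above all perirenal pools. The difference was 1.68 ± 0.13 for muscle minus perirenal (3.20-fold, FDR = 4.02e-13), 1.23 ± 0.13 for subcutaneous minus perirenal (2.35-fold, FDR = 8.92e-10) and 0.45 ± 0.13 for muscle minus subcutaneous (1.36-fold, FDR = 0.00255).

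PRKAB1, the beta 1 scaffold (chromosome 17, 55312110 to 55322901), ran the other way and by less. Its levels were 54.7, 64.9 and 90.6 in muscle, 45.4, 65.3 and 104 in subcutaneous and 49.3, 91.9 and 131 in perirenal pools. Ranges overlapped in all pairs of tissues. Muscle was lower than perirenal by 0.41 on the log2 scale (-0.41 ± 0.12, FDR = 0.00336) and subcutaneous lower than perirenal by 0.32 (-0.32 ± 0.12, FDR = 0.0230). The latter missed the threshold without DG M2 (FDR = 0.0525) or HY F2 (FDR = 0.0985). Muscle and subcutaneous adipose differed by -0.09 ± 0.12 (FDR = 0.528).

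PRKAG3, the gamma 3 subunit of fast skeletal muscle, was the most tissue-restricted member. In muscle its levels were 71.0 at the lowest and 131 at the highest, from 799 to 1683 counts a pool. In perirenal pools it had 0 to 4 counts, with 4 of 12 pools at 0 and 17 counts in all, and there it was too low to be tested between diets. Summed over pools, the muscle level was 667 times the perirenal one (95% exact interval 417 to 1146) and the subcutaneous level 72.9 times (45.4 to 126), with intervals that cover counting error only. Subcutaneous pools spread from 0.50 to 22.1, below every muscle pool. The fit gave muscle minus subcutaneous as 3.48 ± 0.40 (11.2-fold, FDR = 8.41e-09). The span of the muscle locus (chromosome 2, 219734300 to 219793169) also holds CYP27A1, at 16.3 ± 2.37 normalised CPM in muscle (SD, n = 12), and starts and ends beyond the adipose loci.

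PRKAG2, the gamma 2 subunit, had the reverse order. Lowest and highest levels were 63.9 and 95.5 in muscle, 100 and 175 in subcutaneous and 126 and 252 in perirenal pools, so muscle overlapped with neither depot. Muscle was lower than perirenal by 1.22 (-1.22 ± 0.10, FDR = 3.67e-12) and than subcutaneous by 0.58 (-0.58 ± 0.10, FDR = 1.20e-05), and subcutaneous was lower than perirenal by 0.64 (-0.64 ± 0.10, FDR = 2.44e-06). The muscle locus (chromosome 4, 113489893 to 113543663) ends 7052 bases before the subcutaneous one, and the part of this in the 2 muscle contrasts was not tested.

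PRKAG1, the gamma 1 subunit, could not be measured alone in muscle. There the assembly joins it with the neighbouring KMT2D, a histone methyltransferase gene, in 1 locus (chromosome 3, 136982929 to 137035815), while both depots have separate loci. Between the depots, levels were 37.1 to 52.7 in subcutaneous and 45.8 to 61.2 in perirenal pools, lower in subcutaneous by 0.30 (-0.30 ± 0.08, FDR = 0.00104). The sum of PRKAG1 and KMT2D, formed in all tissues after the merged locus was seen, was 0.20 ± 0.08 higher in muscle than in perirenal (FDR = 0.0226) and 0.53 ± 0.08 higher than in subcutaneous adipose (FDR = 6.35e-07).

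Muscle against subcutaneous adipose gave 5 of 8 comparable members higher (PRKAA1, with its reversal, among them), 1 lower and 2 not passing, where 72.2% of all features passed, and the pools of 3 did not overlap (20.7% of all features). Subcutaneous against perirenal adipose gave 3 higher, 4 lower and 2 not passing of 9, where 66.8% passed, and the pools of 2 did not overlap (13.9%).

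The upstream kinases separated the tissues differently. STK11 (LKB1) was low in subcutaneous pools, at 5.65, 16.7 and 29.2 (lowest, median and highest), against 51.0, 72.3 and 80.5 in muscle and 49.0, 61.7 and 92.8 in perirenal pools. No subcutaneous pool reached the level of any pool of the other tissues. Subcutaneous adipose was lower than perirenal by 1.99 (-1.99 ± 0.15, 3.98-fold, FDR = 2.17e-13), and muscle was higher than subcutaneous by 2.08 ± 0.15 (4.23-fold, FDR = 5.94e-14). Muscle and perirenal adipose differed by 0.09 ± 0.14 (FDR = 0.575). The STK11 locus is 14577 bases long in the subcutaneous assembly (chromosome 5, 41052359 to 41066935), against 17232 in muscle (41052150 to 41069381) and 17068 in perirenal adipose (41052351 to 41069418). It ends 2446 bases before the muscle locus, and no other subcutaneous locus covers that stretch, so a lower STK11 level and uncounted reads cannot be told apart.

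CAMKK2, the calcium-dependent activator, was a low-count gene, with counts per pool of 25 to 213 (muscle), 21 to 109 (subcutaneous) and 37 to 143 (perirenal). Its median level was 5.60, 5.41 and 6.26 in that order. The 3 tissue differences lay between -0.16 and -0.07 with SE of 0.18 (FDR from 0.435 to 0.744). In both depots its locus shares a span with P2RX4, which had 15088 and 17015 counts over the 12 pools against 805 and 824 for CAMKK2. In muscle the loci of these genes are separate, and the part of this in the tissue differences was not tested.

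Subunit use was then compared as the log2 ratio of paired genes within a pool (CPM plus 0.1). A ratio can be set against the same ratio in another tissue but does not say which of the 2 genes is more abundant. The 14 tests were two-sided permutation tests of 12 against 12 pools with 100000 resamples, adjusted together, and 1e-05 is the smallest p they can give. The PRKAA2 to PRKAA1 log2 ratio used the summed PRKAA1 loci in muscle, without the SNORD72 locus of the same span. It was 3.79 ± 0.12 (SD, n = 12) in muscle, 2.01 ± 1.32 in subcutaneous and 1.0 ± 0.29 in perirenal pools. Muscle exceeded perirenal adipose by 2.79 in 12 of 12 pools (adjusted permutation p = 2e-05) and subcutaneous adipose by 1.78 in 11 of 12 (adjusted permutation p = 3.11e-05), and subcutaneous exceeded perirenal by 1.0 in 9 of 12 (adjusted permutation p = 0.0193).

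The beta ratio, PRKAB2 to PRKAB1, was 1.51 ± 0.31 in muscle, 0.93 ± 0.93 in subcutaneous and -0.54 ± 0.49 in perirenal pools. Muscle exceeded perirenal by 2.05 (adjusted permutation p = 2e-05) and subcutaneous exceeded perirenal by 1.47 (adjusted permutation p = 5.6e-05), while muscle against subcutaneous was 0.58 (adjusted permutation p = 0.0566). The gamma ratio, PRKAG3 to PRKAG2, was 0.07 ± 0.32 in muscle, -4.79 ± 2.01 in subcutaneous and -10.12 ± 0.89 in perirenal pools, and all 3 pairs were separated (adjusted permutation p = 2e-05 each). Because perirenal PRKAG3 lies near the pseudocount, the size of this ratio there depends on it: with a pseudocount of 1 the difference from perirenal adipose fell from 10.19 to 7.72 for muscle and from 5.33 to 3.27 for subcutaneous adipose. The PRKAG3 to PRKAG2 ratio also carries the unequal lengths of the PRKAG3 loci. It replaced ratios to PRKAG1 wherever muscle took part. Between the depots PRKAG2 to PRKAG1 was lower in subcutaneous by 0.34 (-0.34 ± 0.11 SE, adjusted permutation p = 0.00689). CAMKK2 to STK11 was -3.66 ± 0.69 in muscle, -1.36 ± 0.87 in subcutaneous and -3.38 ± 0.50 in perirenal pools, so it set subcutaneous adipose apart from muscle (adjusted permutation p = 3.11e-05) and perirenal adipose (adjusted permutation p = 2e-05) but not these from each other (difference -0.27 ± 0.25 SE, adjusted permutation p = 0.282). This ratio carries the shorter STK11 locus and, in both depots, the span that CAMKK2 shares with P2RX4.

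**Figure D2:**
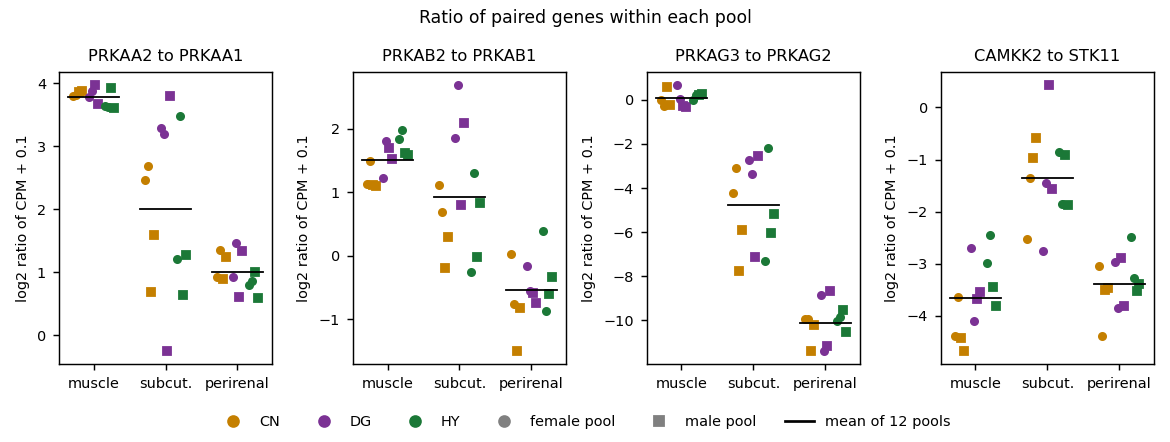
Log2 ratio of paired genes (CPM plus 0.1) in each pool by tissue, with diet as colour, sex as symbol and a line at the mean of 12 pools. Muscle pools lie close together for the alpha, beta and gamma ratios, perirenal pools lie below them, and subcutaneous pools span both for the alpha and beta ratios.

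How far the subcutaneous levels moved with muscle RNA was examined over the 12 pools. Mean log2 level of the muscle markers spread over 7.13 log2 units with no gap above 1.48, so the pools were taken as 1 series. PRKAG3 rose with the markers (Pearson r = 0.96, adjusted permutation p = 9e-05, Spearman rho = 0.93, adjusted permutation p = 0.00027), as did PRKAA2 (r = 0.93, adjusted permutation p = 9e-05, rho = 0.91, adjusted permutation p = 0.000405) and PRKAB2 (r = 0.83, adjusted permutation p = 0.00291, rho = 0.86, adjusted permutation p = 0.00219). Without HY F1 and DG M1, the 2 pools farthest from the median, r was 0.97, 0.93 and 0.85. The p-values are adjusted over the 9 members.

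The other members followed the markers less. STK11 had r = 0.59 (adjusted permutation p = 0.0876) and rho = 0.68 (adjusted permutation p = 0.0426), and r was 0.58 without the 2 farthest pools. PRKAG1 had r = -0.58 (adjusted permutation p = 0.0876), rho = -0.64 (adjusted permutation p = 0.0496) and r = -0.72 without those pools. PRKAA1, PRKAB1, PRKAG2 and CAMKK2 had r of 0.16, -0.40, -0.35 and -0.47, with adjusted permutation p from 0.181 to 0.607 for r and from 0.257 to 0.702 for rho.

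For each pool the share was multiplied by the mean CPM of a member in muscle, both taken without TMM factors. The product was divided by the TMM factor of the pool. This muscle equivalent, the level that so much muscle RNA would carry, was set beside the measured level. For PRKAA2, in order of rising share, the measured levels were 16.2 in HY F1, 11.7 in DG M1, 13.1 in HY M1, 16.7 in CN M1, 37.4 in CN M2, 30.2 in HY M2, 41.9 in CN F1, 62.0 in CN F2, 168.6 in DG F2, 148.6 in DG M2, 88.6 in HY F2 and 115.5 in DG F1. The muscle equivalent rose from 1.21 in HY F1 to 156 in DG F1. The 4 pools of least share lay below all perirenal pools, and DG F2 and DG M2 measured 168.6 and 148.6 against muscle equivalents of 90.9 and 104. In CN F2, HY F2 and DG F1 the equivalent exceeded the measured level, at 125%, 153% and 135% of it.

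For PRKAB2 the measured level stayed above the muscle equivalent in every pool. The remainder after subtracting the equivalent was 58.5 to 96.5 in CN, 13.2 to 98.8 in HY and 62.6 to 195 in DG pools. DG F2, with a share of 54.8%, measured 292, and DG M2, with 60.3%, measured 270, both above the highest muscle pool at 267. HY F2, with a larger share, measured 158.

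PRKAG3 went the other way. The muscle equivalent exceeded the measured level in 11 of 12 pools, with a median of 267% of it. HY F2 measured 22.1 against an equivalent of 67.9, and DG F1 measured 16.7 against 77.9. STK11 likewise measured less than its muscle equivalent in 5 of 12 pools, with 10.9 against 30.1 in CN F2 and 19.4 against 52.6 in HY F2. The share rests on markers that disagreed within pools, as given above, so these differences describe the pools and were not tested. Both genes also have longer loci in muscle than in subcutaneous adipose. The lengths are 58870 and 9348 bases for PRKAG3 and 17232 and 14577 for STK11, and the part of this was not tested.

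**Figure D3:**
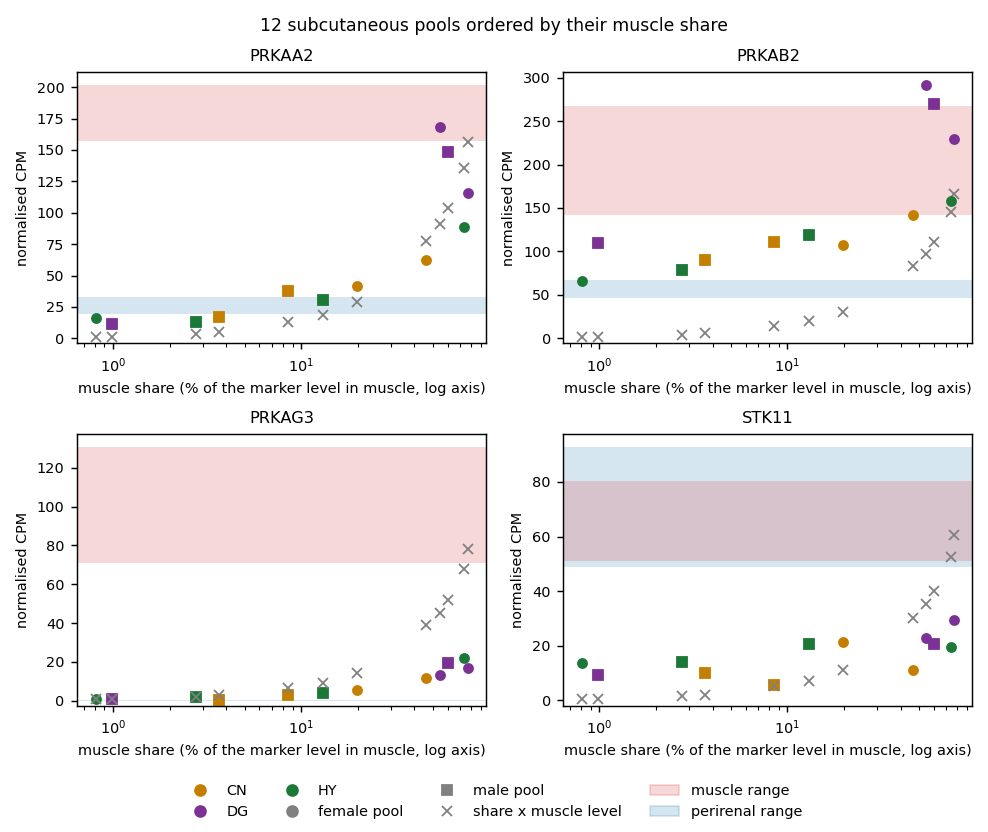
Normalised CPM of PRKAA2, PRKAB2, PRKAG3 and STK11 in the 12 subcutaneous pools against the muscle share of the pool (percent, log axis), with crosses for the muscle equivalent and bands for the range of muscle and perirenal pools. Among the 4 pools with shares above 50%, PRKAA2 reaches the muscle band in DG F2 and PRKAB2 lies in or above the band in all 4, PRKAG3 stays under its crosses at high shares, and STK11 lies below both bands in all 12 pools.

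The second question was whether the maternal diet changed these genes within a tissue. In muscle, CAMKK2 rose 2.78-fold from CN to HY and was the only member past the threshold in that comparison, 1 of 9, against 2.95% of all features. There 3 of 9 had an unadjusted p under 0.05 (20.3% of all features), and DESeq2 called 2 (7.7%) and the edgeR likelihood-ratio test 1 (6.3%). Between CN and DG no member passed, against 1.02% of all features. In that comparison 2 of 9 had an unadjusted p under 0.05 (16.3%), and DESeq2 (3.81%) and the likelihood-ratio test (3.38%) called 2 each. Between HY and DG no member passed (0.0%) and none had an unadjusted p under 0.05 (2.19%), and DESeq2 (0.011%) and the likelihood-ratio test (0.0165%) called none.

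In CN muscle CAMKK2 measured 3.07 in F1, 3.99 in F2, 2.42 in M1 and 2.23 in M2. In DG muscle it measured 12.2, 4.42, 6.14 and 6.18, and in HY muscle 9.36, 11.9, 6.41 and 5.06, in the same order of pools. Every CN pool lay below every DG and HY pool, a separation shown by 9.55% (CN and DG) and 13.8% (CN and HY) of all features. HY minus CN was 1.48 ± 0.34 (edgeR FDR = 0.0393) and DG minus CN 1.27 ± 0.34 (edgeR FDR = 0.0934). The call was lost without CN F1, CN M1, CN M2, DG M1, DG M2, HY F1, HY F2 or HY M1, at FDR from 0.0511 to 0.142, while the difference stayed between 1.23 and 1.67. Adipocyte markers had median differences of the same sign. The 5 adipocyte markers tested in muscle had a median difference of 1.87 for DG minus CN and 1.0 for HY minus CN, none past the threshold, against -0.00 and -0.02 over all features. Their summed level ran from 104 to 167 (CN), 143 to 227 (DG) and 106 to 184 (HY), with LEP at 0 in every pool. Most of each sum was LPL, at 95.8 to 160 over the muscle pools, and ADIPOQ came next at 3.71 to 48.1. The 2 brown adipocyte markers tested had median differences of 0.01 for DG minus CN and -0.16 for HY minus CN. The 3 endothelial markers tested had median differences of 0.46 for DG minus CN and 0.35 for HY minus CN, none past the threshold. Their sums ran from 526 to 638 (CN), 593 to 820 (DG) and 636 to 779 (HY). Fibroblast markers had medians of 0.23 and 0.35 in that order. Immune markers had -0.21 and -0.08, and epidermis markers -0.20 and -0.30. The part of fat RNA or of other cell types in the CAMKK2 and STK11 differences was not tested. P2RX4, which begins next to the CAMKK2 locus (chromosome 17, 53475870 to 53509483), measured 77.6 ± 4.95 under CN, 79.8 ± 8.56 under DG and 82.9 ± 3.26 under HY (SD over 4 pools).

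STK11 gave a smaller difference of the same sign in muscle. It measured 66.6, 51.0, 54.2 and 60.1 in CN, 80.5, 77.9, 79.6 and 73.5 in DG, and 75.1, 65.8, 71.6 and 73.1 in HY pools F1, F2, M1 and M2. DG pools lay above all CN pools, and HY F2 lay within the CN range. DG minus CN was 0.41 ± 0.10 (1.33-fold, edgeR FDR = 0.0692) and HY minus CN 0.30 ± 0.10 (edgeR FDR = 0.112), neither past the threshold. In DESeq2 both were, at FDR = 0.00468 and 0.0420. Among the subunits PRKAB2 had the largest muscle difference, 0.35 ± 0.14 for HY minus CN (edgeR FDR = 0.180), and no other subunit had an unadjusted p under 0.05 in muscle.

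**Figure D4:**
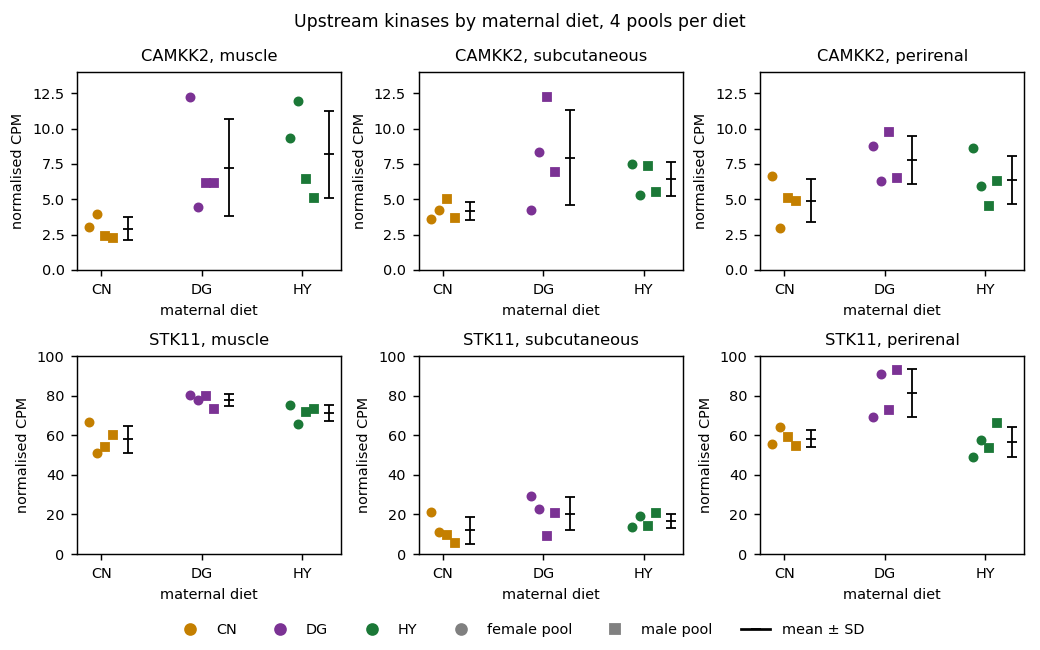
Normalised CPM of CAMKK2 (top) and STK11 (bottom) in the 4 pools of each diet, by tissue, with mean ± SD beside the points. In muscle every CN pool lies below the DG and HY pools for CAMKK2 and below the DG pools for STK11, and in perirenal adipose every DG pool of STK11 lies above the CN and HY pools.

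In subcutaneous adipose no member passed in any of the 3 diet comparisons, and no feature of the whole set did (0.0%). An unadjusted edgeR p under 0.05 was found for 3 members between CN and DG (15.0% of all features), none between CN and HY (4.37%) and 2 between HY and DG (18.2%). DESeq2 called 0 (1.51%), 0 (0.0%) and 1 (5.11%). The likelihood-ratio test called none. The 3 DG pools that held much muscle RNA had the highest PRKAB2 and PRKAA2 levels of all 12. PRKAB2 measured 108, 141, 90.5 and 111 in CN, 229, 292, 109 and 270 in DG, and 66.0, 158, 78.9 and 119 in HY pools F1, F2, M1 and M2. DG M1, with a muscle share of 0.987%, stood with the CN and HY pools. DG minus CN was 1.04 ± 0.33 (edgeR FDR = 0.263) and DG minus HY 1.12 ± 0.33 (edgeR FDR = 0.139).

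With the muscle marker level as a covariate the PRKAB2 differences were 0.79 ± 0.13 (edgeR FDR = 0.0345) and 0.78 ± 0.14 (edgeR FDR = 0.0602), and the shares of all features past the threshold were 0.738% and 0.0%. The DG minus HY difference also passed in DESeq2 (FDR = 0.0249), with the pool number as a replicate block (edgeR FDR = 0.0460), and without HY F2 (edgeR FDR = 0.0463). PRKAA2 differed by 1.53 ± 0.80 for DG minus CN (edgeR FDR = 0.376) and by 0.77 ± 0.28 with the covariate (edgeR FDR = 0.185). For DG minus HY it differed by 1.61 ± 0.80 (edgeR FDR = 0.311) and by 0.71 ± 0.30 with the covariate (edgeR FDR = 0.244). PRKAG3 differed by 1.30 ± 1.13 and, with the covariate, by 0.36 ± 0.30 for DG minus CN. Muscle share and diet cannot be told apart in the 4 DG pools beyond what this covariate takes up.

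Of the other members, CAMKK2 was higher in DG than CN by 0.97 ± 0.30 (edgeR FDR = 0.262), at 3.61, 4.24, 5.001 and 3.70 in CN and 4.23, 8.35, 12.3 and 6.90 in DG pools F1, F2, M1 and M2. The highest of these, DG M1, was the DG pool with least muscle RNA. PRKAA1 was higher in DG than HY by 0.64 ± 0.25 (edgeR FDR = 0.206). PRKAB1 differed by -0.45 ± 0.20 for DG minus CN (edgeR FDR = 0.325). None of these 3 differences passed the threshold. Pools of HY did not overlap with those of CN for CAMKK2 (3.09% of all features) or with those of DG for PRKAB1 (9.65%).

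In perirenal adipose, where muscle RNA was least, 8 members were tested and none passed in any diet comparison, with 0.0% of all features past the threshold. An unadjusted edgeR p under 0.05 was found for 3 between CN and DG (9.85% of all features), none between CN and HY (2.34%) and 2 between HY and DG (9.96%). DESeq2 called 1 (1.38%), 0 (0.0112%) and 1 (0.553%). The likelihood-ratio test called none here either. The DESeq2 calls were STK11. It measured 55.4, 64.3, 59.1 and 54.8 in CN, 69.0, 91.0, 72.9 and 92.8 in DG, and 49.0, 57.5, 53.5 and 66.4 in HY pools F1, F2, M1 and M2. Every DG pool lay above every CN and HY pool. Pools did not overlap for 7.11% of all features between CN and DG, where PRKAG1 was the other such member, and for 5.89% between HY and DG. Fibroblast markers had values of the same sign. The 3 found (of 4) had a median difference of 1.05 for DG minus CN and 1.12 for DG minus HY, none past the threshold, against -0.02 over all features. Their sums ran from 541 to 1643 (CN), 527 to 2927 (DG) and 442 to 1817 (HY), which overlap, and their part in the STK11 values was not tested. For STK11, DG minus CN was 0.47 ± 0.13 (edgeR FDR = 0.172, DESeq2 FDR = 0.0462) and DG minus HY 0.51 ± 0.13 (edgeR FDR = 0.284, DESeq2 FDR = 0.0370). CAMKK2 differed by 0.67 ± 0.27 (edgeR FDR = 0.421) and PRKAG1 by -0.28 ± 0.10 (edgeR FDR = 0.336) for DG minus CN. PRKAA1 differed by -0.35 ± 0.16 for DG minus HY (edgeR FDR = 0.491). PRKAA2 and PRKAB2 lay between 19.2 and 32.7 and between 46.4 and 67.5 in these pools, and the pools of the 3 diets overlapped.

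**Figure D5:**
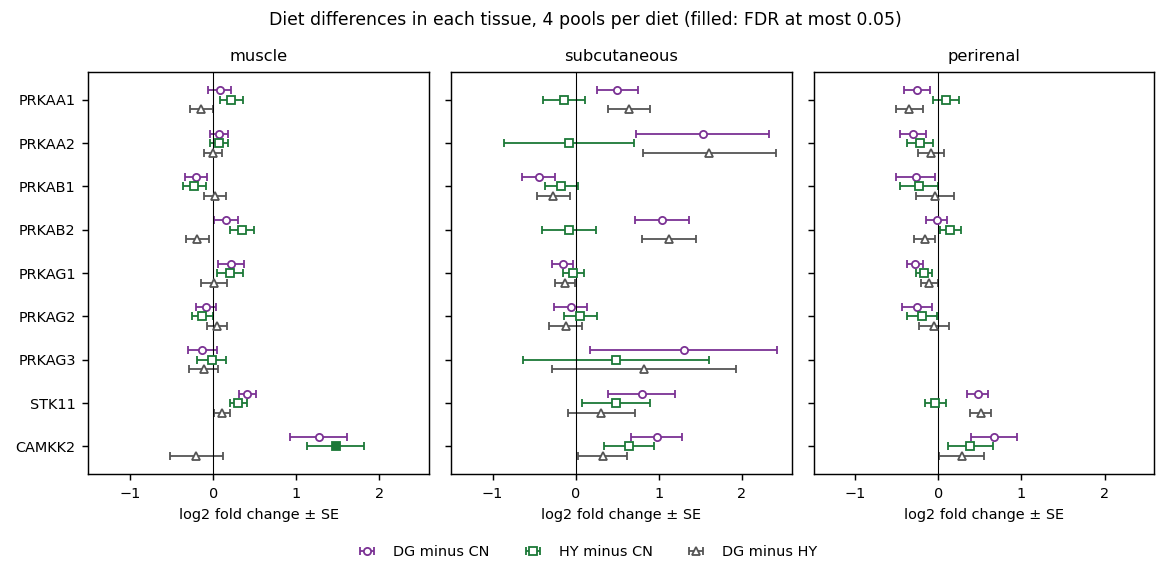
Log2 fold change ± SE of each gene for the 3 diet differences (DG minus CN, HY minus CN, DG minus HY) in muscle, subcutaneous and perirenal adipose, with filled symbols at FDR ≤0.05. The single filled symbol is CAMKK2 for HY minus CN in muscle, and the widest error bars are those of PRKAA2 and PRKAG3 in subcutaneous adipose.

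Whether a diet effect differed between tissues was tested directly in the model of all 36 libraries. For HY vs. DG, subcutaneous and perirenal adipose differed in PRKAB2 by 1.24 ± 0.32 (edgeR FDR = 0.0206) and in PRKAA1 by 0.95 ± 0.25 (edgeR FDR = 0.0241), the only 2 of the members' tests past the threshold over 9 such contrasts, and 7.1% of all features passed in that contrast. The shares in the others were 0.0% to 0.482%, with 0.0226% for muscle against subcutaneous adipose and 0.00753% for subcutaneous against perirenal adipose between CN and DG. For muscle against subcutaneous adipose PRKAB2 differed by -1.27 ± 0.31 (edgeR FDR = 0.0545). The subcutaneous arm carries the muscle RNA described above, and its part in these differences was not tested.

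Sex was compared with diet as a covariate. No member passed in muscle, subcutaneous or perirenal adipose, where 0.0%, 0.0% and 0.0223% of all features did. An unadjusted edgeR p under 0.05 was found for CAMKK2 in muscle (female minus male 0.63 ± 0.22), for none in subcutaneous adipose and for PRKAB1 in perirenal adipose (-0.36 ± 0.17), against 3.84%, 14.8% and 3.26% of all features. The likelihood-ratio test called 0 members. In subcutaneous adipose PRKAA2 differed by 1.03 ± 0.60 (edgeR FDR = 0.409) and by 0.26 ± 0.24 with the muscle markers as a covariate (edgeR FDR = 0.861).

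The other genes of the pathway were read from 6 lists of 65 genes. For diet in muscle, 1 of 52 tested passed between CN and DG and 2 of 52 between CN and HY, all higher outside CN, with medians over the lists of 0.11 and 0.14 against -0.00 and -0.02 over all features. Over all features 1.02% and 2.95% passed, of which 179 of 186 and 480 of 536 were higher outside CN, so neither the counts nor the direction set the pathway apart. The genes called were SREBF1 and PNPLA2. SREBF1, a transcription factor of lipid synthesis that AMPK restrains, stood at 9.81 ± 2.58 under CN, 20.05 ± 5.99 under DG and 18.9 ± 1.81 under HY (SD over 4 pools), higher in DG by 1.01 ± 0.21 (FDR = 0.0394) and in HY by 0.95 ± 0.21 (FDR = 0.0353). PNPLA2, the adipose triglyceride lipase, was 21.4 ± 3.21 in CN and 33.3 ± 5.66 in HY, higher by 0.64 ± 0.14 (FDR = 0.0354). The adipocyte, endothelial and fibroblast markers given above had median differences of the same sign in these pools, and their part in both genes was not tested. No pathway gene passed for HY vs. DG in muscle, nor in any diet comparison of the 56 tested in subcutaneous and the 54 tested in perirenal adipose, where the smallest edgeR FDR was 0.103 and 0.132.

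Between muscle and perirenal adipose, 25 of 54 pathway genes were higher in muscle, 20 lower and 9 did not pass. With 79.8% of all features past the threshold in this contrast, these counts and those of the lists that follow are near the background. Of 8 LKB1 partners and other upstream kinases and phosphatases, 7 were higher and 1 lower in muscle. CAB39L, a scaffold that activates LKB1, was higher by 1.46 ± 0.13, the phosphatase PPM1A by 1.39 ± 0.07, and CAMKK1 was lower by 1.27 (-1.27 ± 0.33). Of 11 AMPK-related kinases that LKB1 also activates, 1 was higher and 6 were lower. MARK2 was higher by 0.24 ± 0.11, and NUAK1 (-2.40 ± 0.19) and NUAK2 (-1.66 ± 0.13) were lower. Of 10 regulators and interactors, 3 were higher and 5 lower: the adenylate kinase AK1 by 6.28 ± 0.57 and the AMP deaminase AMPD3 by 4.13 ± 0.61 on the high side, and the sestrin SESN2 (-7.07 ± 0.26) and AMPD2 (-1.02 ± 0.15) on the low side.

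Of 8 substrates in lipid metabolism, 2 were higher and 5 lower in muscle. The muscle-type acetyl-CoA carboxylase ACACB was higher by 1.88 ± 0.20 and PLD1 by 3.08 ± 0.15, whereas ACACA, the carboxylase of fatty acid synthesis, was lower (-3.07 ± 0.22), as was MLXIPL (-4.14 ± 0.22), a factor that drives lipogenic genes. Of 6 in glucose and glycogen metabolism, 5 were higher and 1 lower. The regulator of GLUT4 traffic TBC1D4 was higher by 2.11 ± 0.17 and PFKFB2 by 1.94 ± 0.21, and TBC1D1 was lower (-0.30 ± 0.07). Of 11 in growth, autophagy, mitochondria and transcription, 7 were higher, among them PPARGC1A by 3.68 ± 0.20 and FOXO3 by 0.97 ± 0.11, and 2 were lower, TSC2 (-0.87 ± 0.12) and ACIN1 (-0.65 ± 0.11). In the other contrasts, 20 were higher and 16 lower of 54 for muscle against subcutaneous adipose, and 18 and 19 for subcutaneous against perirenal adipose, where 72.2% and 66.8% of all features passed in either direction. Tissues were assembled separately, and the limits of these pathway loci were not compared.

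Finally, the genes most like each member were listed by Pearson r of log2 level among 11203 named genes, as a description. Over 36 libraries, which share tissue as their main source of spread, PRKAG3 was most like BEST3 (r = 0.99), MYLK2 (0.99) and SH3RF2 (0.99). PRKAA2 was most like MLF1, CMYA5 and CALCR (0.97 each) and PRKAB2 most like AMOT, ZYG11B and GOLGA4 (0.98 each). STK11 was most like NELFB (0.98), ASB6 and MRFAP1 (0.97 each), and PRKAG2 most like NABP1 (0.93), GCNT3 and NGLY1 (0.92 each). PRKAB1 was most like LAS1L (0.86), AKAP8L (0.85) and MPPE1 (0.83). PRKAA1 and CAMKK2, the members of fewest counts, had no gene above 0.71 (CCPG1) and 0.75 (ADAM17). Over the 12 subcutaneous pools, which share the spread of muscle RNA, PRKAA2 was most like RBFOX1, UBR3 and CLIP4 (0.99 each). PRKAB2 was most like GOLGA4, DYRK2 and CAMK2D (0.98 each), and PRKAG3 most like TMEM65, FZD7 and TCEA3 (0.98 each).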

How the data were processed

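RNA was extracted from fetal tissue with DNase treatment, pooled, and sequenced on an Illumina HiSeq from mRNA-Seq libraries. Per the submitters' processing notes, the authors aligned reads to Oar_v3.1 with TopHat2 2.0.4, assembled transcripts with Cufflinks 2.1.1, separately by tissue, and counted reads per locus with HTSeq. The deposited values are raw counts per locus. Settings on strand and on reads of several genes are not given in the sources used here, so how reads of overlapping genes were counted is not known. Loci of a name were summed. Loci without a name (3.56% to 14.8% of counts) stayed as single features in the diet and sex fits within a tissue. They were left out where the tissues were fitted together.

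Tests used edgeR 4.0.16 (TMM, filterByExpr at its defaults of 10 counts and a total of 15, robust quasi-likelihood fit) in R 4.3.3. Diets were fitted per tissue over 12 pools (18157, 17745 and 17926 features in muscle, subcutaneous and perirenal adipose) and tissues over 36 libraries (13284 features) with 9 tissue and diet groups. DESeq2 1.42.0, the likelihood-ratio test, RLE scaling, no filter, the largest locus of a name, a replicate block, the compared groups only and leaving out each pool were alternatives. Permutation tests were written in numpy 2.4.6 and run on log2 values with pseudocounts of 0.1 for ratios and 0.5 for levels. The exact intervals of PRKAG3 used scipy 1.17.1. Scripts were tested on simulated data.

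All 9 members were named. Of the pathway lists, the rule named those past FDR 0.05 for diet (at most 4 a list) and the 2 highest and 2 lowest for tissue, and the 3 genes most like a member. Members and lists were chosen with earlier results of these data known. Ratios to PRKAG1 were not formed in muscle.

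Pools of the same diet and number in the 3 tissues hold the same fetuses by the study's list of pools. Their deviations from group means correlated at 0.0814 on average (-0.18 to 0.26), against -0.0269 for other pools. Between diets a number marks no shared source.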

Additional observations from a re-analysis of the deposited data

Results flagged for a closer look

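Within groups of 4 pools, the gap of the extreme pool to its neighbour exceeded Dixon's critical share of the range in 4 of 81 groups. Chance flags about 1 in 20 groups. PRKAB1 in subcutaneous DG was lowest in F2 at 45.4, against 63.1 to 63.6 in the other pools. PRKAG1 in muscle DG, the locus merged with KMT2D, was highest in F1 at 241, against 152 to 159. PRKAG1 in subcutaneous HY was lowest in F2 at 38.9, against 46.1 to 46.8. PRKAG3 in subcutaneous HY was highest in F2 at 22.1, against 0.936 to 3.95, and that pool held the most muscle RNA of the HY pools.

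The effect of DG against HY differed between the adipose depots for 2 members by the interaction test (edgeR). For PRKAB2 the difference was 1.24 (FDR = 0.0206), from 1.12 ± 0.33 in subcutaneous adipose and -0.16 ± 0.13 in perirenal adipose. For PRKAA1 it was 0.95 (FDR = 0.0241), from 0.64 ± 0.25 in subcutaneous and -0.35 ± 0.16 in perirenal adipose. Both passed with the replicate block, at FDR = 0.0301 and 0.0325. Muscle RNA in the subcutaneous pools moved with the first of these genes. The fits with the muscle marker covariate given above, that of PRKAB2 among them, were made within subcutaneous adipose only. The part of muscle RNA in either interaction was not tested.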

How the results depend on the processing

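The counts of members past FDR 0.05 between tissues (6, 7 and 7 with muscle PRKAG1 included) stayed within 1.5 times under all alternatives run, with leave-one-out ranges of 6 to 6 for muscle vs. perirenal, 6 to 7 for muscle vs. subcutaneous and 6 to 8 for subcutaneous vs. perirenal. In muscle, CN vs. DG went from 0 to 2 members with the likelihood-ratio test and with DESeq2 and from 0 to 1 when single pools were left out. CN vs. HY went from 1 to 2 with DESeq2 and from 0 to 1 without single pools. In subcutaneous adipose, CN vs. DG gave 1 member with the muscle marker covariate, and HY vs. DG gave 1 with DESeq2, 1 with the replicate block and 0 to 1 without single pools. In perirenal adipose, CN vs. DG and HY vs. DG gave 1 each with DESeq2. The cause of these moves was not tested. PRKAA1 for muscle vs. subcutaneous reversed to -0.37 with the largest locus of a name, because 1 of its 2 muscle loci then drops out, and for muscle vs. perirenal it became -0.53 for the same reason. Of the followed differences of single members, 611 values kept direction and side of the threshold, 12 crossed to pass and 13 crossed to fail. The replicate block changed no other call: exact paired sign flips left all 14 ratio tests on their side of the threshold, as did a pseudocount of 1. Same-numbered pools of different diets correlated at -0.0401 in muscle, 0.184 in subcutaneous (-0.40 to 0.61) and 0.0538 in perirenal adipose, so diets were not paired. The median muscle share was 16.4%, or 18.9% from summed markers. At 0 to 4 counts a pool, PRKAG3 could not be tested for diet in perirenal adipose.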
